A study of Rattus norvegicus with 40 samples.

Results

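The comparison covers hippocampal slices of 4 aged rats that were stimulated with intermittent theta burst stimulation (iTBS) or with 1 Hz repetitive transcranial magnetic stimulation (rTMS). The rats were aged unimpaired (AU), that is, they performed in the Morris water maze as young rats did. The members were taken from the sample titles alone: the 4 primary arrays of AU iTBS slices and the 4 of AU 1 Hz slices, or 8 of the 40 arrays of the series, paired by the number of the rat. The sham arrays and the repeat arrays were left out of every test of the pair and appear only beside it. All 8 arrays came from male Long-Evans rats of 25 to 26 months per the sample labels, and the protocol in the same labels places them 1 month younger. The *ex vivo* slices were kept in artificial cerebrospinal fluid for 1 h before stimulation and lay 1 cm below the coil at 15% of its maximum output. Sham slices lay 20 cm away. The slices of 1 brain were shared out among dishes for 1 Hz, iTBS and sham, so each rat gave RNA to all 3 conditions. The labels put RNA collection 1 h after stimulation and their protocol puts it at 2 h. Young rats of 5 to 6 months and aged impaired (AI) rats of 25 to 26 months per the labels were male Long-Evans rats as well. With 4 rats each and the same 3 conditions, they served to test whether the AU difference differed by group. The study compared each protocol with sham. Setting the protocols against each other asks whether the pattern of the pulses left different transcript levels in slices of the same animal.

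In rTMS a current pulse through a coil induces an electric field in the tissue. Pulses at a slow constant rate are known to lower cortical excitability in many settings, whereas theta bursts, short high-frequency trains repeated at the theta rhythm, are used to raise it when given intermittently. In neurons, synaptic activity and calcium entry switch on immediate early genes such as *Fos*, *Egr1* and *Arc* within minutes, followed by later genes such as *Bdnf* that act on synapses. Hippocampal slices hold pyramidal and granule neurons, interneurons, astrocytes, oligodendrocytes, microglia and vessels, and the arrays read the sum of them. In such bulk RNA, fewer cells of a type and less RNA per cell cannot be told apart.

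Each one-color array carried 45598 different non-control probes, of which 21109 had a gene symbol, for 16581 genes. A level here is a z-score of the log2 intensity over its array, times 4.07, which is the SD of log2 intensity averaged over the 8 arrays, so it is given in log2 units from the array mean. A difference between iTBS and 1 Hz is only roughly a log2 fold change, since each array was divided by its own SD. That SD was 3.93, 3.94, 4.25 and 4.48 on the iTBS arrays of rats 1 to 4. On their 1 Hz arrays it was 3.63, 3.80, 4.21 and 4.32. Division by the larger SD draws bright and dim probes of the iTBS arrays toward the array mean. Arrays have no sequencing depth. In its place, the share of features well above background was 86.5% to 89.3% on the 4 arrays of rats 1 and 2 and 71.8% to 76.7% on the 4 of rats 3 and 4, and the arrays of the former stood apart from those of the latter. The rat was a block in the test, since the slices of 1 rat were divided between the protocols. The block removed that split from the levels but not from the differences within a rat. Within each rat the iTBS array held the position that followed the 1 Hz array. In rats 1, 2 and 3 both lay on 1 slide, and in rat 4 on 2 slides, so array position and protocol cannot be told apart. Markers of hippocampal fields were measured in every array. The summed level of the 7 CA1 markers was 6.98 to 7.61 with iTBS and 7.01 to 8.31 with 1 Hz, and that of the 9 dentate granule cell markers was 6.47 to 6.98 and 6.43 to 6.85. The 8 thalamic markers, which hippocampal slices should largely lack, summed to 3.43 to 3.61 and 3.32 to 3.70. The summed level of the 12 neuronal markers was 8.42 to 9.30 with iTBS and 8.69 to 9.17 with 1 Hz, that of the 10 astrocyte markers was 9.56 to 9.80 and 9.60 to 10.11, and that of the 14 microglial markers was 8.23 to 8.78 and 8.18 to 9.03. Choroid plexus markers were dim, and 7 of the 23 on the array lay below the filter, *Kl* and *Kcnj13* among them.

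No transcript was called between the protocols. With limma and the rat as block, 36804 probes were tested that lay well above background on at least 4 of the 8 arrays, and 0 (0%) passed an adjusted p of 0.05. The smallest adjusted p was 0.781, and 0 passed at 0.3. At an unadjusted p of 0.05 there were 2061 probes (5.6%), 1179 higher with iTBS (3.2%) and 882 lower (2.4%). The direction of these probes depended on the scaling. With each array scaled to its 75th percentile, 145 were higher and 2633 lower. After normexp background correction and quantile normalization, 761 were higher and 796 lower. The median difference over all probes was 0.06 with the z-score and -0.08 with the 75th percentile, and gene lists are therefore also given relative to all genes. Simulated data with the same design show what the test could call: a log2 change of 1 was recovered in 22% of changed probes, 2 in 50%, 3 in 80% and 4 in 84%.

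At the level of genes, with the brightest probe of each, 14374 were tested and 649 had an unadjusted p under 0.05 (4.52%), 348 of them higher (2.42%) and 301 lower (2.09%). The 95% interval of the difference lay within 1 log2 unit of 0 on both sides for 11918 genes (82.9%). It lay within 0.5 for 4807 (33.4%). For most genes a difference of 1 log2 unit on this scale was thus outside the interval, and smaller ones were not. Of the 14344 genes measured in all rats, 1506 were higher with iTBS in 4 of 4 rats (10.5%), 759 were lower in 4 of 4 (5.29%), and for 125 the 4 iTBS levels did not overlap the 4 for 1 Hz (0.871%). An exact sign-flip test over 4 rats cannot give a two-sided p below 0.125, so single genes were tested with limma alone.

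The difference between the protocols was not a pattern that recurred from rat to rat. Across 36740 probes, the differences of any 2 rats correlated at -0.12 to 0.15, a description over probes that share arrays and are not independent. Over the 27405 probes well above background on all 8 arrays, the range was -0.29 (rats 2 and 4) to 0.22 (rats 1 and 4). Within a rat, the spread of iTBS minus 1 Hz over probes, as a scaled median absolute deviation, was 0.52 in rat 1, 0.28 in rat 2, 0.38 in rat 3 and 0.40 in rat 4. That of iTBS minus sham in the same rats was 0.27 to 0.44, and that of 1 Hz minus sham 0.33 to 0.43. The sham RNA of rat 4 was hybridized again, and the repeat array differed from the first by 0.22. As an SD over probes that difference was 0.55, beside 0.66, 0.35, 0.74 and 0.67 for iTBS minus 1 Hz in rats 1 to 4. The protocols thus lay about as far from each other as each lay from sham, and arrays of different rats lay up to 0.83 apart.

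**Figure D1:**
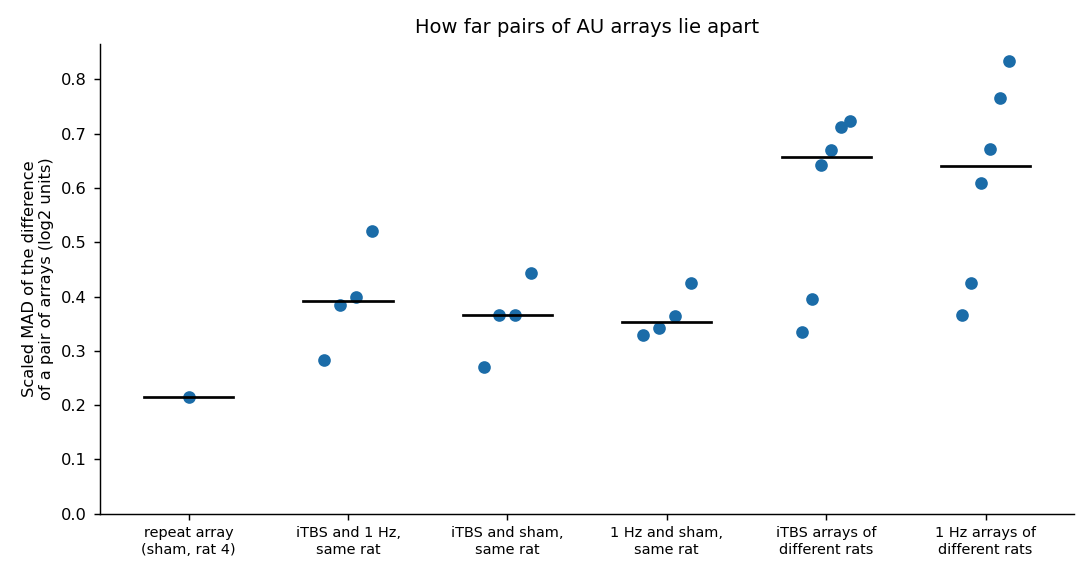
Spread of the probe-wise difference of pairs of AU arrays, as a scaled median absolute deviation in log2 units. Each point is 1 pair of arrays and the bar is the median of its kind. Pairs of iTBS and 1 Hz arrays from 1 rat sit at 0.28 to 0.52, above the 0.22 of the single repeat pair, an order that the SD does not keep in rat 2. Pairs of different rats sit at 0.33 to 0.83, with their low points in rats 1 and 2, and 3 and 4.

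The genes with the smallest p and 1 direction in all 4 rats were low in these slices, and 5 of 12 higher and 0 of 12 lower genes lay well above background on all 8 arrays. *Liph*, a lipase that releases lysophosphatidic acid, led them. Its level was -3.72, -3.43, -3.07 and -4.04 with iTBS in rats 1 to 4 and -4.83, -4.31, -3.83 and -5.18 with 1 Hz. Each rat was higher with iTBS, by 0.77 to 1.14, while the groups overlapped, since rat 4 with iTBS lay below rat 3 with 1 Hz. The mean difference was 0.98 (SE 0.13, limma adjusted p = 0.781). It was 0.63 with the 75th percentile scaling and 0.19 after quantile normalization. Only 1 of the 4 arrays for 1 Hz measured *Liph* well above background, so its difference is poorly fixed. *Hdc*, the enzyme that makes histamine, was at -0.95, -1.82, -2.68 and -1.45 with iTBS and at -2.49, -2.71, -3.21 and -2.80 with 1 Hz. It lay higher with iTBS in every rat, by 1.08 on average (SE 0.20), and its second probe differed by 0.92. *Dcdc2*, a doublecortin-family gene of cilia and neuronal migration, lay well above background on all 8 arrays and differed by 0.96 (SE 0.16), with 0.97, 0.98, 0.59 and 1.28 in the 4 rats. *Pcdhb6*, a clustered protocadherin of neuronal adhesion, differed by 0.73 (SE 0.16), with 1.12, 0.74, 0.38 and 0.68. *Mepe*, a phosphoprotein of bone matrix, differed by 0.78 (SE 0.14) and *Vwa5b1* by 1.11 (SE 0.25). Both were well above background throughout.

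*Or4d10c*, an olfactory receptor gene, was the 1 gene of these 24 whose groups did not overlap. Its level was -1.87, -3.35, -2.21 and -3.65 with iTBS and -4.54, -4.19, -3.94 and -4.70 with 1 Hz, a mean difference of 1.57 (SE 0.33). Sham slices were at -4.56, -3.58, -3.22 and -4.42, between the protocols on average. The same held for all 12 genes that lay higher with iTBS and for 7 of the 12 that lay lower. Of those lower, sham lay above both protocols in 3 and below both in 2. The genes were selected for a difference between the protocols, which favors a sham mean between them. The others of the higher set were *Krt73*, *Krtap10l1*, *Tmc7*, *Reg3b* and *Itgb6*, with 0.77 to 0.98. Their adjusted p was 0.781, as for all 24.

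The 12 genes that lay lower with iTBS differed by -0.69 to -1.24. *Adgrg7*, an orphan adhesion receptor, had the largest of these differences. It was at -3.82, -3.21, -3.68 and -4.80 with iTBS and at -2.20, -2.48, -2.56 and -3.32 with 1 Hz, and the groups overlapped only through rat 4 with 1 Hz and rat 2 with iTBS. Sham slices were at -4.55, -3.09, -4.41 and -5.24, so the 1 Hz level was the one apart from sham. *Mcpt4*, a protease of mast cell granules, was at -3.14, -3.20, -5.29 and -4.35 with iTBS and at -2.42, -2.43, -4.62 and -3.31 with 1 Hz, and sham slices lay above both on average. *Nprl3*, a subunit of the GATOR1 complex that restrains mTORC1, differed by -0.86 (SE 0.14), and *Aoah*, which deacylates lipopolysaccharide, by -0.89 (SE 0.15). The 4 olfactory receptor genes (*Or1j12*, *Or2h1b*, *Or52r7* and *Or8k24*), *Mrgprb3*, *Fndc3c1*, *Morc2b* and *Sowahd* completed the set. Of the 12, 8 were above background on just 4 of the 8 arrays. *Morc2b* had a second, dimmer probe with a difference of 0.35 in the other direction.

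**Figure D2:**
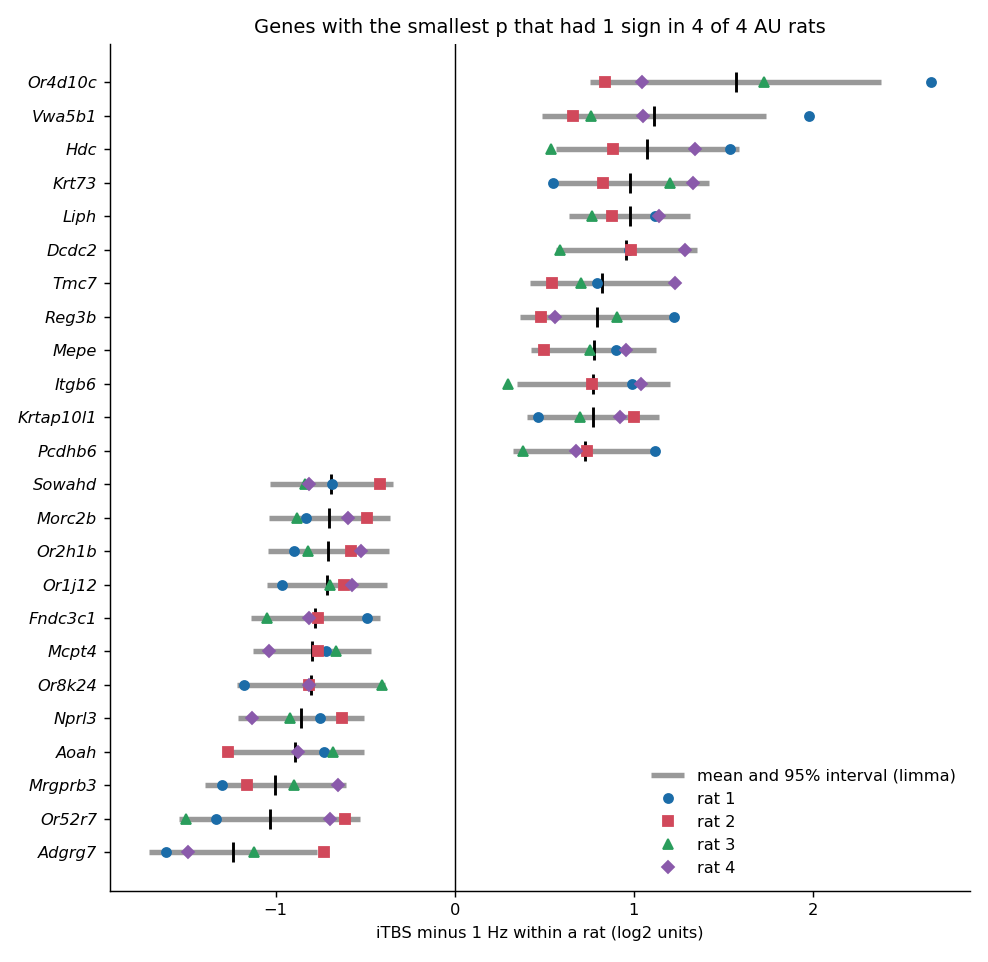
Difference of iTBS minus 1 Hz in each AU rat, in log2 units, for 24 genes, the 12 of each direction that had the smallest p and 1 sign in 4 of 4 rats. Points are rats, the tick is the mean and the gray bar the 95% interval from limma. The genes were selected for their direction, so the side of 0 is a given, and the means run from -1.24 for *Adgrg7* to 1.57 for *Or4d10c* with an adjusted p of 0.781 for each.

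Immediate early genes, the transcription factors and signaling regulators first induced by activity, did not pass the test in either direction. At an unadjusted p under 0.05 there were 0 of 40, beside 4.52% of all genes, which is too few to set the list apart. *Fos* was at 3.56, 3.43, 3.77 and 3.34 with iTBS and at 3.94, 3.72, 3.63 and 3.50 with 1 Hz. The groups overlapped, and sham slices were at 3.57, 3.65, 3.60 and 3.84. The mean difference was -0.17 with a 95% interval of -0.53 to 0.18. *Egr1*, a zinc finger factor needed for lasting potentiation, was at 5.72, 5.04, 5.00 and 5.19 with iTBS and at 5.73, 5.34, 5.27 and 5.02 with 1 Hz, a difference of -0.10 (interval -0.46 to 0.26). After quantile normalization the sign of the *Egr1* difference turned. *Arc*, a regulator of AMPA receptor endocytosis, was at 4.41, 4.08, 3.48 and 4.35 with iTBS and at 4.32, 4.34, 3.54 and 3.84 with 1 Hz. Its difference of 0.07 (interval -0.35 to 0.49) came mainly from rat 4, at 0.51, and also turned after quantile normalization. In *Fos*, *Egr1* and *Arc* a difference of 1 log2 unit on this scale therefore lay outside the interval.

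For the other classical activity genes the interval also held 0. *Homer1*, a postsynaptic scaffold with an activity-induced short form, differed by -0.02 (interval -0.34 to 0.30), and *Nr4a1*, an orphan nuclear receptor, by -0.27 (interval -0.77 to 0.24). *Per1*, a clock gene induced through CREB, was lower with iTBS in each rat, by -0.44, -0.25, -0.15 and -0.03. Its mean of -0.22 (interval -0.55 to 0.12) had the smallest p of the list. *Npas4*, a factor induced by calcium entry, was dim and could be measured well above background on 5 of the 8 arrays. It was at -3.85, -4.64, -3.59 and -2.68 with iTBS and at -2.81, -3.69, -3.65 and -2.96 with 1 Hz. Rats 1 and 2 lay about 1 log2 unit lower with iTBS and rats 3 and 4 slightly higher. The mean difference of *Npas4* was -0.41, and its interval reached more than 1 log2 unit from 0, unlike those of *Fos*, *Egr1* and *Arc*.

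As a list, the 40 immediate early genes had a median difference of -0.14 beside 0.06 for all genes tested, and 31 of the 40 were negative. Relative to the median of all genes, 34 of 40 lay lower with iTBS, 31 with the 75th percentile scaling and 30 after quantile normalization. The rats did not share this direction. The median was -0.38 in rat 1 and -0.25 in rat 2 but 0.01 in rat 3 and 0.22 in rat 4. Of the 40 genes 2 were negative in all 4 rats, near the 5.29% of all genes. Without rat 1, 25 of 40 lay below the median of all genes. Rats 1 and 2 were also the rats with more features above background, and the part of this in the direction was not tested.

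**Figure D3:**
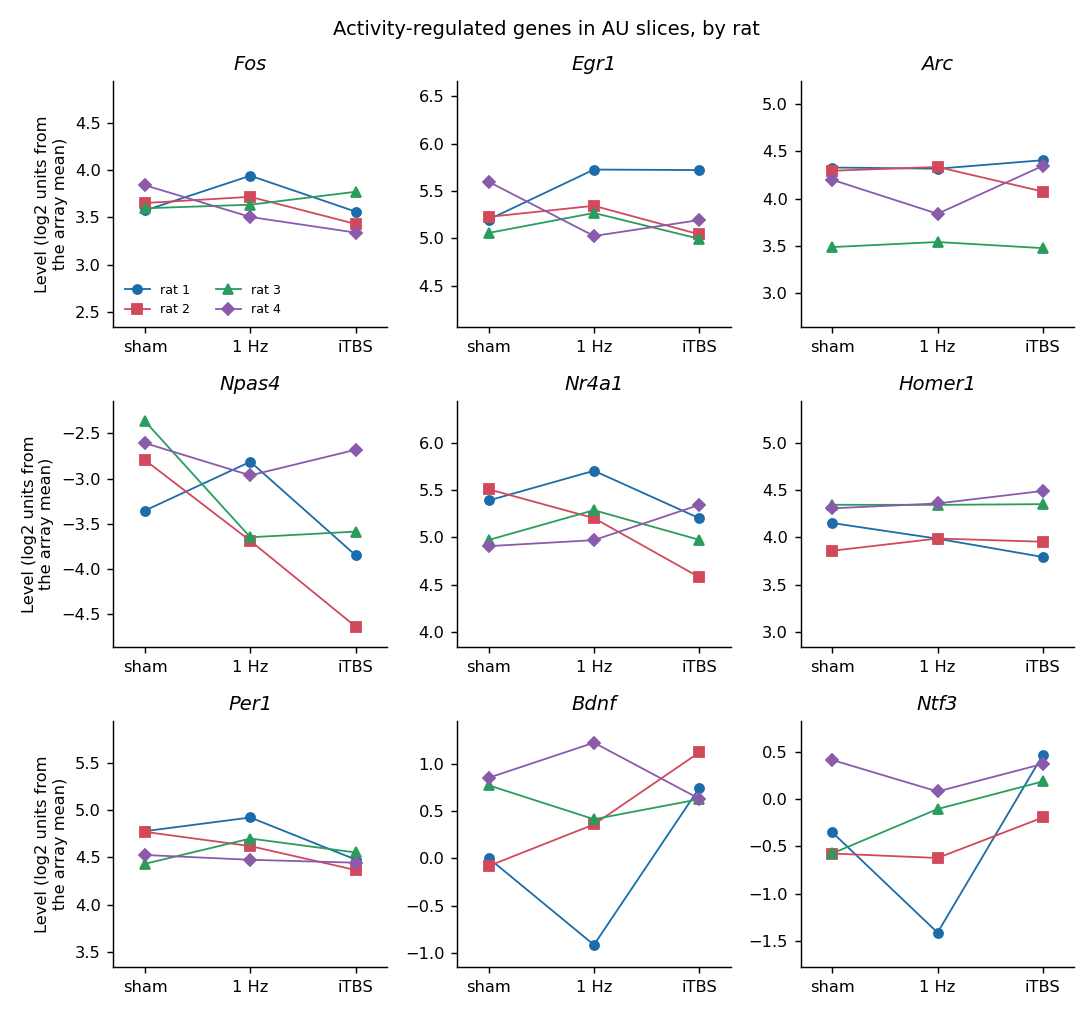
Level of 9 activity-regulated genes in AU slices under sham, 1 Hz and iTBS, in log2 units from the array mean, with a line for each rat. The vertical scale differs by panel. *Fos*, *Egr1*, *Arc* and *Homer1* vary by less than 1 log2 unit within any rat, while *Bdnf* and *Ntf3* vary most in rat 1, where the 1 Hz array is the lowest.

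Later activity genes and growth factors showed no called difference either. At an unadjusted p under 0.05 there were 0 of 27, again near the 4.52% of all genes. *Bdnf*, the neurotrophin that strengthens synapses, was at 0.74, 1.12, 0.63 and 0.63 with iTBS and at -0.91, 0.36, 0.41 and 1.22 with 1 Hz. It was higher with iTBS in 3 of 4 rats and differed by -0.59 in rat 4, with a mean of 0.51 and an interval of -0.41 to 1.43, so a doubling could not be set aside. *Ntf3*, the related neurotrophin of granule cells, differed by 1.88 in rat 1 and by 0.29 to 0.43 in the others, a mean of 0.72 (SE 0.31, limma adjusted p = 0.781). *Npy*, an interneuron peptide, was higher in every rat by 0.10 to 0.57. Its mean difference was 0.32 (SE 0.14). The median of the list was -0.09.

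Among genes of synaptic transmission, 2 of 26 glutamate receptors reached an unadjusted p under 0.05 above 1 Hz and 1 below, beside 2.42% and 2.09% of all genes. *Grin2d*, the NMDA receptor subunit of interneurons, had groups that did not overlap. It was at 8.12, 8.28, 7.66 and 7.42 with iTBS and at 9.79, 8.74, 8.30 and 8.32 with 1 Hz, a difference of -0.92 (SE 0.23, limma adjusted p = 0.781). Sham slices were at 8.11, 9.40, 7.96 and 8.15, in part above the 1 Hz arrays. A second, much dimmer probe of *Grin2d* differed by -0.27. The median over the 26 receptors was 0.00.

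Of 20 GABA receptor genes 1 reached an unadjusted p under 0.05 (4.52% of all genes), *Gabrp* at -0.44 (SE 0.13), a dim transcript. *Gabrb2*, a subunit of synaptic GABA-A receptors, was at 3.18, 3.20, 3.18 and 3.58 with iTBS and at 2.51, 2.97, 3.00 and 3.36 with 1 Hz, higher by 0.18 to 0.67 in each rat. Among interneuron and GABA transport genes, *Nos1*, the neuronal nitric oxide synthase, differed by -0.57 (SE 0.18). Of 35 synaptic vesicle genes, 1 lay above and 1 below at an unadjusted p under 0.05, beside 2.42% and 2.09% of all genes. *Syt7*, a calcium sensor of slow release, was the 1 above, at 0.81 (SE 0.31). *Vamp2*, the SNARE of vesicle fusion, was the 1 below, at -0.36 (SE 0.13). It was at -0.19 with the 75th percentile scaling and at -0.13 after quantile normalization. The 35 had a median of -0.10, and 26 lay below the median of all genes under each of the 3 scalings. Their median was 0.13 and 0.15 in rats 1 and 2 and -0.28 and -0.32 in rats 3 and 4. Postsynaptic scaffold genes had a median of 0.03 over 30 genes, with *Slc17a8*, a vesicular glutamate transporter, at 0.52 (SE 0.20).

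Channel and kinase genes held 0 called members, and few reached an unadjusted p under 0.05: 1 of 48 potassium channel, 0 of 19 calcium channel and 2 of 37 calcium kinase and phosphatase genes, beside 4.52% of all genes. *Kcnk9*, a leak potassium channel, differed by -0.58 (SE 0.20), with -0.91, -0.03, -0.42 and -0.96 in the 4 rats. *Pde4d*, which degrades cyclic AMP, differed by -0.73 (SE 0.21) in its brightest probe, while its 5 other probes differed by -0.10 to 0.12. *Camk2d*, a calcium/calmodulin kinase subunit, differed by -0.34 (SE 0.13). The medians of the sodium and HCN, calcium and potassium channel lists were 0.01, 0.02 and 0.05, beside 0.06 for all genes.

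Genes of mitochondria and ribosomes lay slightly lower with iTBS as lists, and this depended on the scaling. All 15 ATP synthase genes and 75 of 76 ribosomal protein genes were among the brightest 4792 of the 14374 genes tested. The median difference was -0.16 for 33 NADH dehydrogenase genes, -0.18 for 15 ATP synthase genes, -0.23 for 14 cytochrome c oxidase genes and -0.18 for 76 ribosomal protein genes. Of the 76 ribosomal protein genes 75 lay below the median of all genes, but 29 did with the 75th percentile scaling and 24 after quantile normalization. For the 33 NADH dehydrogenase genes the counts were 30, 22 and 21, and for the 14 cytochrome c oxidase genes 12, 12 and 11. The direction of the ribosomal list thus turned with the scaling and that of the mitochondrial lists did not, although relative to all genes their medians shrank to between -0.07 and -0.02 in the alternatives.

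Rat 1 held the largest of these differences. In it the 4 medians were -0.35, -0.46, -0.52 and -0.53, against -0.27 to 0.06 in the other rats. Without rat 1 the ribosomal median relative to all genes was -0.09. Among the members, *Rps18*, a small-subunit protein, was at 8.02, 7.83, 8.31 and 7.96 with iTBS and at 8.67, 8.30, 8.48 and 8.26 with 1 Hz, a difference of -0.40 (SE 0.14, limma adjusted p = 0.781). *Rpl21* differed by -0.41 (SE 0.16) and turned positive after quantile normalization, and its 3 other probes differed by -0.10 to -0.02. *Atp5mc1*, a ring subunit of ATP synthase, was at 7.09, 7.13, 7.00 and 6.98 with iTBS and at 7.59, 7.22, 7.30 and 7.27 with 1 Hz. These groups did not overlap, with a difference of -0.29 (SE 0.13). *Cox6b2* differed by -0.44 (SE 0.17) and *Cox8b* by 0.37 (SE 0.14). The heat shock chaperone *Hsp90ab1* had groups that did not overlap as well, at 7.56, 7.72, 7.59 and 7.73 with iTBS and 8.12, 8.02, 8.34 and 7.92 with 1 Hz, a difference of -0.45 (SE 0.15). For *Hsp90ab1* this became -0.32 with the 75th percentile scaling and -0.14 after quantile normalization. Its partner *Hsp90aa1* differed by -0.37 (SE 0.13), and the 34 heat shock and unfolded protein genes had a median of 0.02.

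**Figure D4:**
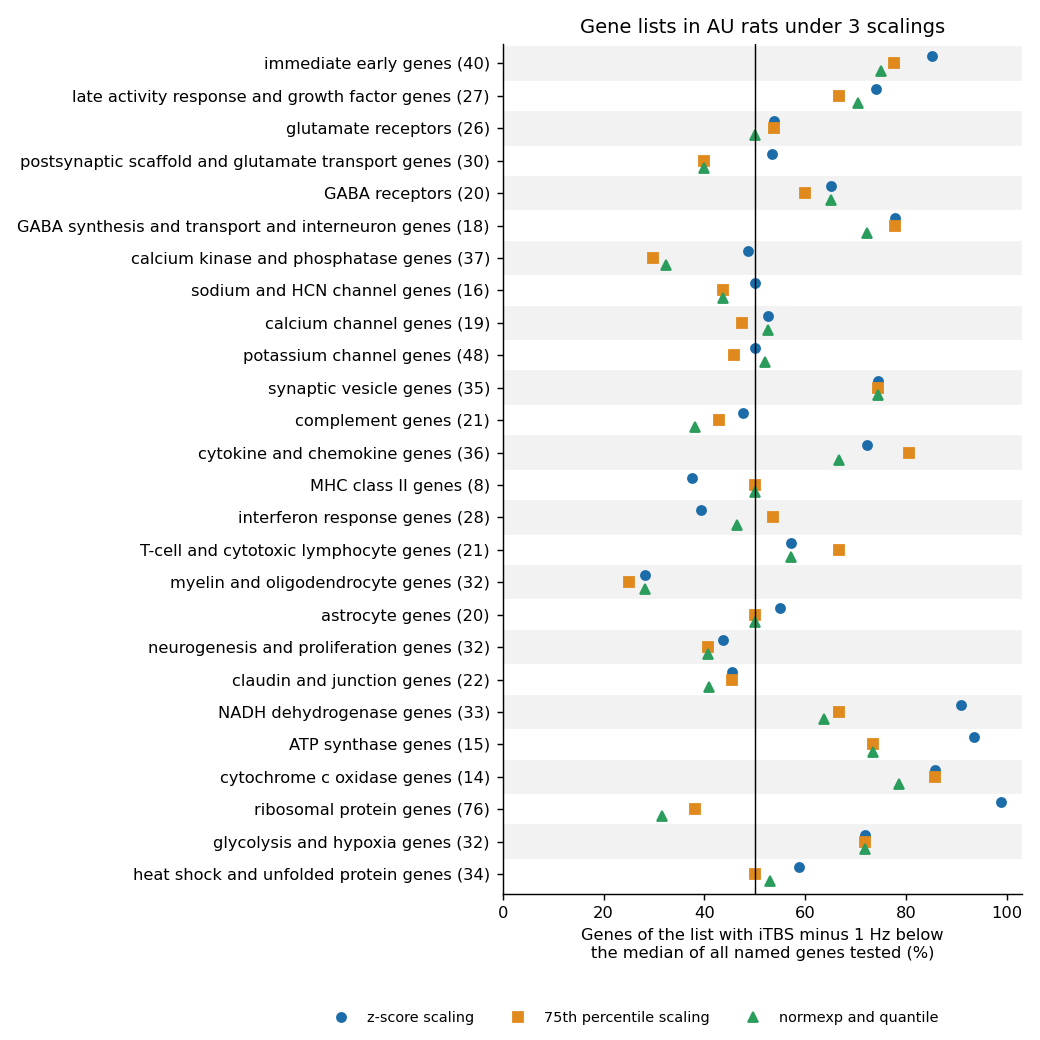
Share of the genes of each list whose difference of iTBS minus 1 Hz lay below the median of all named genes tested, in percent, under 3 scalings of the AU arrays. The line marks 50%. The ribosomal protein genes go from 75 of 76 under the z-score to 24 of 76 after quantile normalization, whereas the immediate early, synaptic vesicle and cytochrome c oxidase genes stay on 1 side.

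Among the pathway lists, myelin and oligodendrocyte genes had the widest gap between rats. The median over 32 genes was 0.92 in rat 1, -0.36 in rat 2, -0.12 in rat 3 and 0.17 in rat 4. Relative to all genes 9 of 32 lay lower with iTBS, and 23 of 32 did without rat 1. *Mbp*, the main protein of compact myelin, ran against its list. It was at 10.05, 10.03, 10.06 and 9.54 with iTBS and at 11.003, 10.63, 10.20 and 9.89 with 1 Hz, a difference of -0.51 (SE 0.17, limma adjusted p = 0.781). The *Mbp* difference was -0.27 with the 75th percentile scaling and -0.13 after quantile normalization. *Aspa*, an oligodendrocyte enzyme, differed by 0.36 (SE 0.20), with 0.99 in rat 1 and -0.04 to 0.37 in the others. The summed level of the 12 oligodendrocyte markers, to which bright transcripts add most, differed by -0.44 in rat 1 where their median was 0.96, so the list had no single direction there. The summed level of all named genes tested differed by -0.26 in rat 1. The astrocyte genes *Apoe*, a lipid carrier, and *Aldoc*, a glycolytic enzyme, differed by -0.38 (SE 0.13) and -0.43 (SE 0.17), each negative in 4 of 4 rats. With the 75th percentile scaling they differed by -0.17 and -0.23, and after quantile normalization by -0.13 and -0.28. *Gfap*, the astrocyte filament, differed by 0.79 (SE 0.32) and was negative in rat 2. The list of 20 had a median of -0.05.

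No gene of the immune lists was called. Of 21 complement genes 3 lay above at an unadjusted p under 0.05 and 0 below, beside 2.42% and 2.09% of all genes, among them *C4a*, at 0.45, 0.40, 0.71 and -0.21 with iTBS and -0.31, 0.06, 0.51 and -0.69 with 1 Hz. Its difference was 0.44 (SE 0.15). *C1s*, a protease of the classical pathway, differed by 0.44 (SE 0.17) in its brighter probe and by -0.12 in the other. The complement median was 0.08 beside 0.06 for all genes, and 10 of 21 lay below the median of all genes. The 36 cytokine and chemokine genes had a median of -0.11, with -0.40 in rat 2 and 0.16 in rat 3. *Ccl20* differed by -0.63 (SE 0.16), a dim transcript, and *Tnf*, an inflammatory cytokine of microglia, by -0.28 (SE 0.13). Of the interferon response genes *Irf8*, a factor of myeloid cells, was at -2.51, -2.80, -2.75 and -2.10 with iTBS and at -3.25, -3.00, -4.40 and -2.82 with 1 Hz. These groups did not overlap, with a difference of 0.83 (SE 0.25). *Usp18* differed by 0.59 (SE 0.16). MHC class II genes went opposite ways in rats 1 and 2, as in *Cd74*, the invariant chain, with 2.85 and -1.20. *Tbx21*, which is known from T cells, gave a bright probe with a difference of -0.58 (SE 0.13), while *Nkg7*, another lymphocyte gene, differed by 0.48 (SE 0.16). *Cx3cr1*, the fractalkine receptor of microglia, differed by -0.51 (SE 0.19).

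The remaining lists held 0 called genes. Of 32 neurogenesis and proliferation genes 3 lay above at an unadjusted p under 0.05 and 0 below, beside 2.42% and 2.09% of all genes, and the median was 0.13. *Neurod4*, a proneural factor, differed by 0.49 (SE 0.14), and *Bub1*, a kinase of the mitotic checkpoint, by 0.59 (SE 0.20). The 22 claudin and junction genes had a median of 0.09 with 1 below, and the 32 glycolysis and hypoxia genes had a median of -0.11 with 1 above, *Ankrd37* at 0.46 (SE 0.16). Relative to all genes 23 of these 32 lay lower under each of the 3 scalings.

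**Figure D5:**
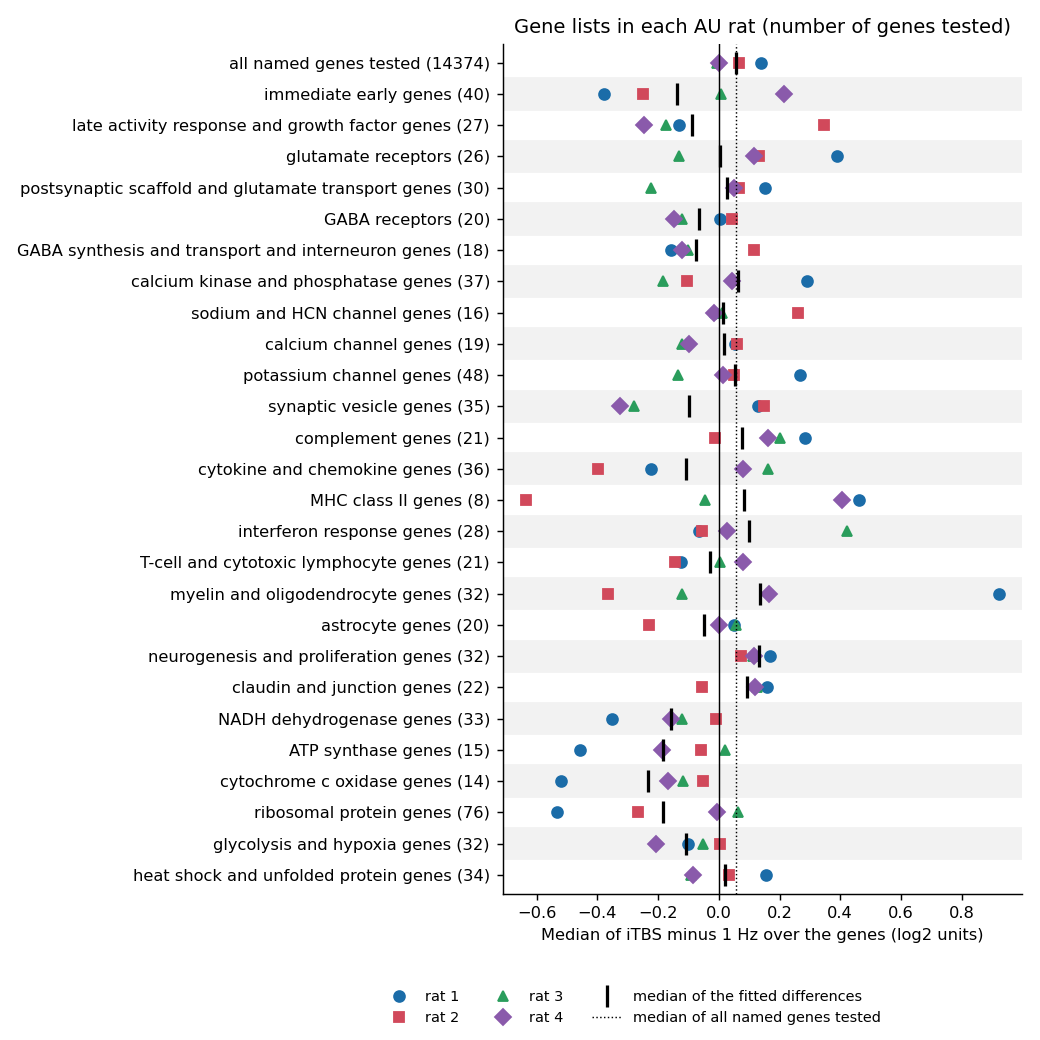
Median of iTBS minus 1 Hz over the genes of each list in each AU rat, in log2 units, with the number of genes tested in parentheses. Points are rats, the tick is the median of the fitted differences, and the dotted line is the median of all named genes tested, 0.06. Rat 1 holds the extreme for myelin genes at 0.92 and for ribosomal protein genes at -0.53.

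Markers of regions and cell types varied between the slices that a rat gave to each protocol. The 9 dentate granule cell markers had a median difference of 0.37, with 2 above at an unadjusted p under 0.05 (2.42% of all genes), and 4 were higher in all 4 rats (10.5% of all genes). Relative to all genes the median was 0.32, or 0.12 with the 75th percentile scaling and 0.18 after quantile normalization. *C1ql2*, a synaptic organizer of mossy fibers, was at 4.78, 4.06, 3.71 and 4.29 with iTBS and at 2.63, 3.79, 2.24 and 3.95 with 1 Hz, a difference of 1.06 (SE 0.36), and *Stxbp6* differed by 0.60 (SE 0.23). The summed level of all 9 differed by 0.26, -0.03, 0.14 and -0.01 in the 4 rats. That of the 9 markers of CA2 and CA3 neurons differed by 1.13 in rat 1, that of the CA1 markers by -0.82 in rat 1 and 0.60 in rat 4, and that of the ependymal markers by 1.06 in rat 1. Summed over all named genes tested, the level differed by -0.26, -0.11, -0.07 and -0.08 in the 4 rats. *Folr1*, a choroid plexus gene, differed by 3.56 in rat 1 and by 0.44 to 1.22 in the others. The summed choroid plexus level differed by 0.41 in rat 1 and by -0.16 to -0.05 in the others. The part that the makeup of the slices had in the differences was not tested.

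The criteria given in the methods, which pair a z-test and a z-ratio with an ANOVA over all 9 groups, selected 8 of 45598 probes (0.0175%), 4 in each direction. The genes among them, named after their values were seen, were *Smoc2* and *Clec2l* above 1 Hz and *Tenm4*, *Dgkg*, *Defb43* and *Grin3a* below. The z-ratio expresses a difference of mean z-scores in units of its SD across probes. It was 2.69 for *Smoc2*, a matricellular protein, and -2.69 for *Tenm4*, an adhesion molecule. *Smoc2* was higher in every rat, by 1.83, 0.32, 0.50 and 1.23. *Tenm4* differed by -1.82, 0.41, -0.99 and -1.46, and rat 2 ran against the others, as it did for *Dgkg*, a diacylglycerol kinase. *Grin3a*, an NMDA receptor subunit, differed by -2.46 in rat 1 and by 0.29 in rat 2. The limma adjusted p of all 8 was 0.781. Without rat 1 these criteria selected 0 probes, without rat 2 they selected 40, and with any mean z-score allowed they selected 105.

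The genes that the study lists for the slices were chosen on these same samples and give no independent evidence of direction. Of its 44 listed genes on the array 37 were tested, and their median was 0.09. At an unadjusted p under 0.05, 2 lay above 1 Hz and 0 below, beside 2.42% and 2.09% of all genes. In the myelination genes of that list, 8 in all, the median was 0.23, with 1.02 in rat 1 and -0.37 in rat 2.

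Whether the difference of the protocols in AU rats differed from that in the other groups was tested with limma on the difference within each of the 12 rats. Against young rats 0 of 36804 probes (0%) passed an adjusted p of 0.05, with 6661 at an unadjusted p under 0.05 (18.1%). Against AI rats 0 passed (0%), with 7868 unadjusted (21.4%). The smallest adjusted p was 0.168 and 0.0991. With the 75th percentile scaling 29 probes passed against young rats and 1229 against AI rats, all of them lower in AU. Under that scaling the median difference over all genes was -0.05 in AU, 0.09 in young and 0.05 in AI rats, the same direction. With the z-score these medians were 0.06, -0.03 and -0.08. The part of this general shift in the calls was not tested. Both contrasts use the same 4 AU rats. The genes with the smallest p were *Or2ag19* and *Kbtbd6* against young rats, where AU minus young was -1.32 for each (SE 0.22), and *Or1af1* and *Hoxa13* against AI rats, where AU minus AI was -1.64 (SE 0.21) and -1.58 (SE 0.23). *Hoxa13*, a homeobox gene of posterior tissues and dim here, differed by -0.95, -0.39, -0.54 and -0.52 in AU rats and by 0.80, 1.37, 1.21 and 0.55 in AI rats, and the groups did not overlap. *Kbtbd6*, a ubiquitin ligase adaptor, differed by -0.82 to -0.39 in AU rats and by 0.32 to 1.03 in young rats.

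By list, few immediate early genes differed in these contrasts. Of 40 immediate early genes, 1 reached an unadjusted p under 0.05 against young and 1 against AI rats, where 18.6% and 21% of all genes did. The median over that list was -0.14 in AU, -0.04 in young and -0.10 in AI rats. Of 27 later activity and growth factor genes 3 lay higher and 4 lower in AU than in young rats (12.1% and 6.52% of all genes). Against AI rats 0 lay higher and 2 lower (14.2% and 6.79% of all genes). The mitochondrial and ribosomal lists went the other way in the other groups. The median of the NADH dehydrogenase genes was -0.16 in AU, 0.18 in young and 0.12 in AI rats, and 16 of 33 lay lower in AU than in young rats at an unadjusted p under 0.05 (6.52% of all genes), as did 11 against AI rats (6.79%). For ribosomal protein genes the medians were -0.18, 0.07 and 0.31, and 54 of 76 lay lower in AU than in AI rats (6.79% of all genes), but 9 of 76 did against young rats (6.52%). With the 75th percentile scaling the ribosomal medians relative to all genes were 0.02, -0.16 and 0.05, and the NADH dehydrogenase medians -0.04, 0.05 and -0.02, so the ribosomal contrast with young rats turned and the other contrasts were smaller. Of 37 calcium kinase and phosphatase genes 12 lay higher and 4 lower in AU than in young rats, and of 21 complement genes 7 and 2 (12.1% and 6.52% of all genes). Against AI rats the counts were 1 and 2 of the 37 and 4 and 1 of the 21 (14.2% and 6.79% of all genes). *Pcdhb6* differed by 0.73 in AU, -0.13 in young and -0.42 in AI rats.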

How the data were processed

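RNA was labeled with Cy3 and hybridized to one-color Agilent arrays. The authors extracted the intensity with Feature Extraction 12.0.3.1 per the file headers, background-subtracted and not normalized across arrays. A score table was deposited as well, the z-score of the log intensity of each array, which recomputed z-scores matched to within 0.005. Here recomputed z-scores were multiplied by 4.07 (log2 SD of the 8 arrays, 3.63 to 4.48). Spots of a probe were averaged, and 71 values were missing. The 6958 Ensembl probes stayed unnamed, since the gene table used holds none of them.

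Probes well above background on at least 4 of 8 arrays (80.7%) were tested with limma 3.58.1 in R 4.3.3, with the rat as fixed block, residual df 3, prior df 2.49 and Benjamini-Hochberg adjustment. The brightest probe stood for a gene. The comparison, whose arrays the titles define, and the gene lists were chosen with earlier results of these data known. Named genes were the 12 with the smallest p per direction among genes with 1 sign in 4 of 4 rats, 2 per list and interaction, and 7 activity genes. Some genes under this rule are not reported here. The rat numbers pair the arrays because slices of a rat were divided among conditions, per the labels. Deviations of same-rat arrays correlated at 0.44 to 0.52, those across rats 1 and 2 at 0.51 and 0.57 and across rats 3 and 4 at 0.22 and 0.46, and all others at -0.56 to -0.37, so these values separate the 2 sets of rats and not each rat. The fit was tested on simulated data with 200 changed of 36740 probes: 59% were recovered with 7 false calls. The number of arrays limits the precision. Alternatives covered scaling, background correction, filters, blocks and rats left out. Plots were drawn with matplotlib 3.10.9.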

Additional observations from a re-analysis of the deposited data

Results flagged for a closer look

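Of 222 groups of 4 levels among the named genes reported here, 3 held 1 array far from the others by Dixon's test, which flags about 1 in 20 groups by chance. *Gabrb2* with iTBS stood at 3.58 in rat 4 beside 3.18 to 3.20 in the others, and rat 4 was also the highest with 1 Hz. *Mbp* with iTBS stood at 9.54 in rat 4 beside 10.03 to 10.06, and *Kcnk9* with 1 Hz stood at -2.75 in rat 2 beside -2.29 to -2.21.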

How the results depend on the processing

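The count of 0 probes past an adjusted p of 0.05 held under all the alternatives run: other scaling and background correction, the authors' table, filters on dim probes, blocks, extra arrays, the mean of a gene's probes and each rat left out. The 2061 probes at an unadjusted p of 0.05 became 470 without the replicate block, 724 of 14381 genes with the mean of the probes of a gene, and 1286 to 2294 with a rat left out, lowest without rat 1; the cause was not tested. The slide as a block gave the result without rat 4, since that rat's arrays lie on separate slides. The criteria of the methods gave 4 probes without the ANOVA, 105 with any mean z-score allowed and 0 to 40 with a rat left out (0 without rat 1, 40 without rat 2). Against young and AI rats, 75th percentile scaling gave 29 and 1229 probes, and leaving out an AU rat gave 0 to 2 against AI rats (2 without rat 3). Under the 75th percentile scaling the median over all genes was also lower in AU than in either group. With a filter that kept only probes above background on all 8 arrays, 76.5% of the probes at an unadjusted p of 0.05 were higher, against 57.2% in the values given, 5.22% with 75th percentile scaling and 48.9% after quantile normalization. Directions turned for *Alas2* (75th percentile -0.0143, quantile -0.0953), *Arc* (quantile -0.0221, slide as block -0.0782, with a rat left out -0.0782 to 0.177), *Cd74* (with a rat left out -0.0647 to 1.29), *Egr1* (quantile 0.0470), *Homer1* (with a rat left out -0.0731 to 0.0353), *Itpr3* (75th percentile -0.0367), *Nlgn2* (mean of its probes 0.0415) and *Rpl21* (quantile 0.145). The negative end for *Arc* was without rat 4 and for *Cd74* without rat 1, and *Homer1* was positive without rat 1. The block changed no other call. Signal over background limits the 24 genes named first, of which 5 lay well above background on all 8 arrays.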
